A study of Mus musculus with 2 samples.

Results

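Metallothioneins and zinc transporters were examined in ribosome footprints from mouse ileum, as 10 genes out of the 22756 gene rows of the study. They are the metallothioneins Mt1 and Mt2, the metal-sensing transcription factor Mtf1, the importers Slc39a4, Slc39a5 and Slc39a14, and the exporters Slc30a1, Slc30a5, Slc30a7 and Slc30a10. The genes were chosen by family from the gene symbols, with their fasted/fed ratios in these same libraries already known, so every value below is a description. All 10 had a row and all 10 passed the minimum of 30 counts summed over both libraries.

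The ileum is the distal stretch of small intestine. Tissue came from wild type C57BL/6 mice at postnatal day 21 in both groups, with no allele or agent other than the feeding state. The fed group is a single library and the group fasted for 48 h is another (n = 1 each). How many animals each library pools is not stated in the labels. A footprint is the stretch of mRNA that a ribosome protects from nuclease, and footprint counts combine mRNA amount with how heavily it is translated. Without replicates there is no test between the states, so each comparison is between these 2 libraries. In whole tissue, fewer cells of a type and less RNA per cell cannot be told apart.

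Metallothioneins are small cysteine-rich proteins of the cytosol that bind zinc and copper and buffer them. When free zinc is plentiful, Mtf1 binds metal response elements in gene promoters and turns on metallothionein genes and the exporter gene Slc30a1; glucocorticoids also induce mouse Mt1 and Mt2. Proteins of the Slc39 (ZIP) family carry zinc into the cytosol from outside the cell or from organelles, and proteins of the Slc30 (ZnT) family carry it out of the cytosol. In the intestine Slc39a4 takes up dietary zinc at the brush border of enterocytes, and Slc30a1 passes zinc on across the basolateral membrane.

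Promoter sequences of the genes on which the account turns are shown first, because metal response elements are the sites through which Mtf1 acts. RefSeq windows (build GRCm38.p6, the assembly of mm10) run from 250 bases before to 50 bases after an annotated gene start and were found for 8 of the 10 genes; a gene may have other starts. The search used the core letters TGCACNC or TGCGCNC on both strands, and overlapping matches were joined and counted once. Capitals mark these matches; where a match lies on the opposite strand, the capitals show its complement. The metallothionein promoters are shown because both genes were far higher in the fasted library, and that of Slc30a1 because it is a known Mtf1 target that was not.
Mt1 promoter, chr8:94178839-94179138, plus strand: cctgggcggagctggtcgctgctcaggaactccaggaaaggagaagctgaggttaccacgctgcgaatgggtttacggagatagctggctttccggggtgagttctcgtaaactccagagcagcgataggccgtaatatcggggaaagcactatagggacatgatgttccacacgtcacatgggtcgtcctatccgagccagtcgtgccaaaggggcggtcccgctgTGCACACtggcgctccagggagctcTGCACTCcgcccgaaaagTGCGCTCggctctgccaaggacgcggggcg
Mt2 promoter, chr8:94172368-94172667, plus strand: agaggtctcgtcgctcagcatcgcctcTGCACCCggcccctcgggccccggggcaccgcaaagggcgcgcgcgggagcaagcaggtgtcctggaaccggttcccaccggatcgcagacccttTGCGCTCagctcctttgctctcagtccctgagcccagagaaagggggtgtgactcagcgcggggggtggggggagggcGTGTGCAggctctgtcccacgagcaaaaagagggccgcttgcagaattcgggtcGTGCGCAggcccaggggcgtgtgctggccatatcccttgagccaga
Slc30a1 promoter, chr1:191906531-191906830, plus strand: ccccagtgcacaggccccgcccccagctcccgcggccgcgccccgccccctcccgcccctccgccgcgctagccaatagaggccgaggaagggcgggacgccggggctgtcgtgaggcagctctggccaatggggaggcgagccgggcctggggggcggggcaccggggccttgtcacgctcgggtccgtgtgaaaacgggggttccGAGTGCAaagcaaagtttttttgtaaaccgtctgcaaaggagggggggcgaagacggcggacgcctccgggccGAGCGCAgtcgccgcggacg

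The Mt1 window held 3 core matches, all on the gene strand, at positions -23 to -17, 3 to 9 and 21 to 27. Position 1 is the start annotated in RefSeq, and there is no position 0. Which start the ileum uses was not tested, so a match placed after position 1 may lie upstream of the start in use. The Mt2 window held 4, with those at -223 to -217 and -128 to -122 on the gene strand and those at -50 to -44 and 5 to 11 on the opposite strand. In the GENCODE annotation Mt2 starts later, at 94172664, and all 4 matches lie before that base. The Slc30a1 window held 2, both on the opposite strand, at -43 to -37 and 31 to 37. Of 32851 RefSeq promoter windows of the same length, 25.7% held at least 1 stretch, 6.14% at least 2, 1.31% at least 3 and 0.295% at least 4. The Slc30a10 window held 2 stretches, the first of them a pair of overlapping matches on both strands, the Slc30a5 window 1, and those of Mtf1 and Slc30a7 none. Slc39a5 has 2 annotated starts, of which 1 window held 1 match and the other none. Among other zinc transporters, the Slc30a4 window held 3 stretches at a log2 fasted/fed ratio of 0.31, and the Slc30a2 window 2 at 2.93. Slc39a8 (2.85) had 1 stretch in 1 window and none in the other, and both windows of Slc39a10 (-0.84) had none. GC content was 60.7% for the Mt1 window, 67.7% for Mt2, 73% for Slc30a1 and 81.7% for Slc30a4. The 32851 windows were not matched for GC content, and a match does not show that Mtf1 binds. The printed windows were chosen with the ratios of their genes known, so these shares are a description and test no link to Mtf1.

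**Figure D1:**
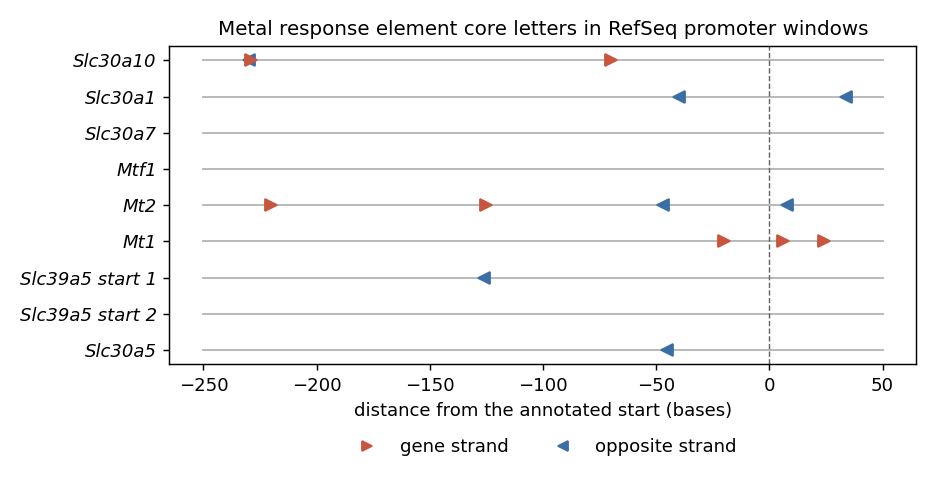
Positions of the metal response element core letters in the RefSeq promoter windows of the genes that have one, in bases from the annotated start (dashed line). Arrowheads give the strand of each match relative to the gene; Mt2 has 4 matches, Mt1 has 3, and Mtf1 and Slc30a7 have none.

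Footprints of both metallothioneins were many times more frequent after the fast. Mt1 (ENSMUSG00000031765) lies on the plus strand of chromosome 8 at 94179082 to 94180327 (mm10). Its footprints numbered 307 when fed against 7302 when fasted. These correspond to 49.4 and 1503 CPM, counts normalised to library size after TMM scaling, a method that sets the typical gene ratio near 1. The fasted level of Mt1 was 30.4-fold the fed level, a log2 ratio of 4.93 with a 95% exact interval of 4.76 to 5.10 that covers counting error only. Mt2 (ENSMUSG00000031762, chromosome 8, 94172664 to 94173568, plus strand) gave 87 footprints when fed against 3283 when fasted. Its level went from 14.0 to 676 scaled CPM, 48.0-fold higher, with a log2 ratio of 5.59 (interval 5.29 to 5.92). Among the 11333 measured genes, Mt2 had the 5th highest fasted/fed ratio and Mt1 the 10th.

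Together the pair took 0.00709% of all gene counts in the fed library (0.00641% to 0.00782%, exact Clopper-Pearson bounds at 95%) and 0.195% of those in the fasted one (0.191% to 0.199%). Their balance also differed, and this comparison needs no scaling between libraries. Both coding sequences are 183 bases long without the stop codon. Another annotated gene overlaps the coding sequence of Mt2 but not that of Mt1, so the level of Mt2 against Mt1 carries a doubt. Mt1 supplied 77.9% of the pair's footprints in the fed library (73.5% to 81.9%) and 69.0% in the fasted library (68.1% to 69.9%). The counting intervals do not overlap, and there were 3.53 Mt1 footprints for each Mt2 footprint in the fed library against 2.22 in the fasted one.

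The coding sequences of Mt1 and Mt2 are identical at 145 of 183 bases (79.2%), yet no 28-base window is shared between them, so at the length of a footprint their reads can be told apart. No 28-base window of Mt1 coding sequence occurred in a GENCODE vM21 transcript of another gene. For Mt2, 59.0% of windows lie where the annotated gene Gm45774 overlaps it, and 1 of 156 windows also occurred in a transcript of Pip5k1a. Whether the counting used strand is not stated in the labels, and the strand of Gm45774 was not compared with that of Mt2. The count of Mt2 may therefore be affected by the overlap.

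Other metallothioneins were barely seen. Mt3, the brain form, had 5 fed and 8 fasted counts and did not reach the minimum, and Mt4, the form of stratified squamous epithelium, was not analysed here. Mt3 is also the nearest protein-coding neighbour of the pair, 18.5 kb before Mt2, and Mt2 ends 5.51 kb before Mt1 begins. On the same side Bbs2, a component of the primary cilium's BBSome, had 57 and 40 counts (log2 ratio -0.15, interval -0.78 to 0.45). On the other side Nup93, a nuclear pore protein 34.2 kb from Mt1, had 288 and 166 counts and a log2 ratio of -0.44 (-0.72 to -0.16), below the 1.5-fold threshold. Slc12a3, the thiazide-sensitive salt cotransporter, had 0 and 8. Herpud1, a gene of endoplasmic reticulum protein degradation 206 kb away, had 987 and 4695 counts and was higher in the fasted library (log2 ratio 2.60, 2.51 to 2.71). The measured genes nearest to the pair on either side, Bbs2 and Nup93, were thus not higher, while Herpud1 was.

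Among 7984 protein-coding genes with at least 100 counts, the ratios nearest to that of Mt1 were those of Cyp3a11 (log2 ratio 4.98) and Cyp2b10 (5.14), both drug-metabolising enzymes, and the transcription factor Zbtb16 (5.21). Nearest to Mt2 were Pck1, the gluconeogenic enzyme (5.47), the pyruvate dehydrogenase kinase Pdk4 (5.90) and again Zbtb16. Likeness here is the distance between log2 ratios over 2 libraries, a single number per gene.

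**Figure D2:**
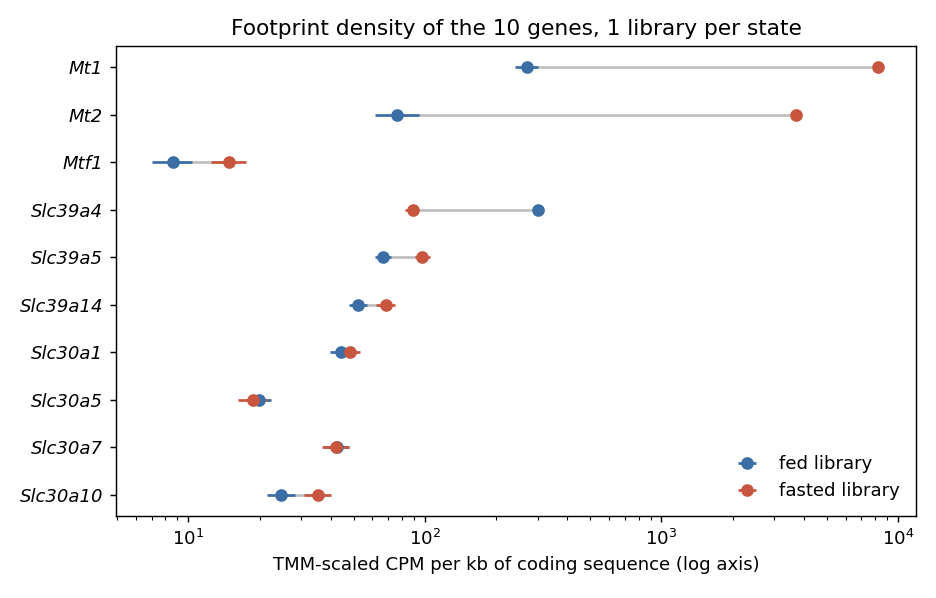
Footprint density of each of the 10 genes in the fed (blue) and fasted (red) library, as TMM-scaled CPM per kb of coding sequence on a log axis, with 95% exact Poisson intervals for counting error. Mt1 and Mt2 lie far to the right in the fasted library, Slc39a4 moves the other way, and the 4 exporters stay within about the same range in both.

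Mtf1, the factor that senses zinc for the metallothionein genes, was modestly higher in the fasted library. Mtf1 (chromosome 4, 124802104 to 124849800) gave 108 footprints when fed and 146 when fasted, or 17.4 and 30.05 scaled CPM. Its log2 ratio was 0.79 (0.42 to 1.16), 1.73-fold. With plain CPM, where each count is divided only by its library's gene total and log2 ratios fall by 0.32, it was 0.47 (0.099 to 0.84) and no longer reached 1.5-fold. Per kb of coding sequence Mtf1 had the lowest footprint density of the 10 genes in both libraries, 8.58 and 14.8 scaled CPM per kb. The fed value lay below the median of measured genes (14.5) and the fasted value near it (14.2).

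A gene was called where the ratio reached 1.5-fold and its interval left out 1. By this rule 3 of the 10 genes were higher after the fast (Mt1, Mt2 and Mtf1), Slc39a4 alone was lower and 6 were neither. Over all measured genes 17.3% were higher and 17.3% lower (1956 and 1962 genes; with plain CPM 1004 and 3536). The median log2 ratio of the 10 genes was 0.45, and 0.0028 over all measured genes; because the genes were picked with these ratios known, the counts support nothing further. With plain CPM the counts were 2 higher, 1 lower and 7 neither.

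**Figure D3:**
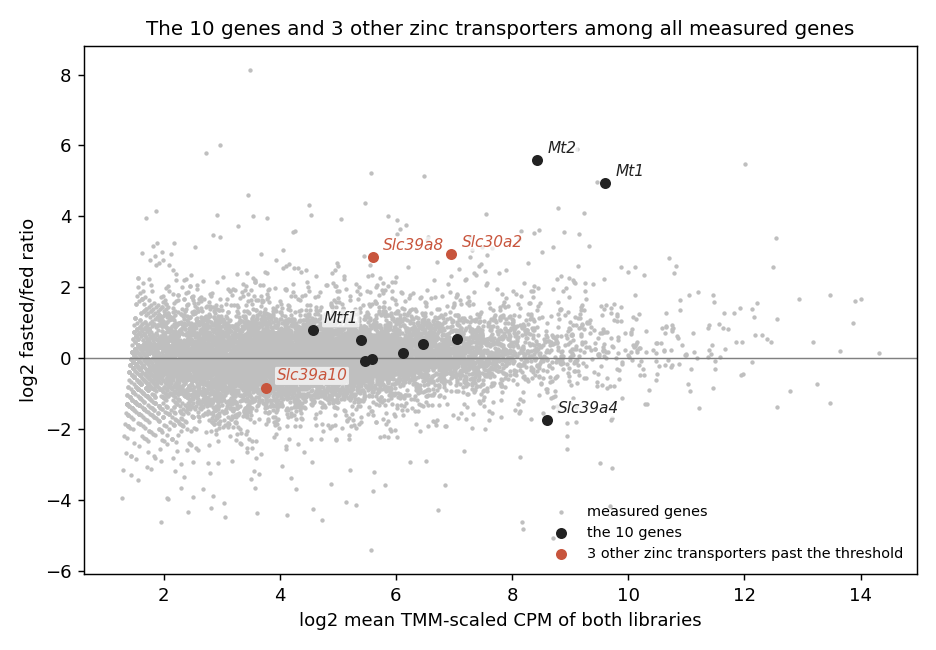
log2 fasted/fed ratio against log2 mean TMM-scaled CPM for all 11333 measured genes (grey), with the 10 genes in black and 3 other zinc transporters past the threshold in red. Mt1 and Mt2 sit near the top of the ratio range at high level, Slc39a4 is below -1.5, and the 6 unlabelled genes lie in the main cloud.

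Among the importers Slc39a4 was lower after the fast, and Slc39a5 and Slc39a14 did not pass in either direction. Slc39a4 (chromosome 15, 76612383 to 76617384, minus strand), the importer of the enterocyte brush border whose human counterpart is mutated in acrodermatitis enteropathica, gave 3709 footprints when fed and 853 when fasted. Its level was 597 and 176 scaled CPM, 3.40-fold lower in the fasted library (log2 ratio -1.76, -1.87 to -1.66), the 241st lowest ratio of the measured genes. Slc39a5 (chromosome 10, 128395931 to 128401229, minus strand), which takes up zinc at the basolateral face of enterocytes, had 666 and 761 counts, or 107 and 157 scaled CPM. Its log2 ratio was 0.55 (0.40 to 0.70), just short of 1.5-fold, and 0.22 with plain CPM. Slc39a14 (chromosome 14, 70303469 to 70351425, minus strand), which carries zinc, manganese and non-transferrin-bound iron, had 476 and 486 counts, or 76.6 and 100.02 scaled CPM (log2 ratio 0.39, 0.20 to 0.57; 0.063 with plain CPM).

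The balance between the brush border and basolateral importers can be read within each library. Slc39a4 gave 84.8% of the footprints of Slc39a4 and Slc39a5 in the fed library (83.7% to 85.8%) and 52.9% in the fasted library (50.4% to 55.3%). Per kb of coding sequence, Slc39a4 had 301 scaled CPM per kb in the fed library against 66.7 for Slc39a5. In the fasted library the values were 88.7 (95% exact Poisson interval 82.8 to 94.8) and 97.6 (90.8 to 105), which overlap.

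None of the 4 exporters among the 10 genes passed the threshold. Slc30a1 (chromosome 1, 191906767 to 191913247), the plasma membrane exporter and Mtf1 target, gave 413 footprints when fed and 353 when fasted, or 66.4 and 72.6 scaled CPM. Its log2 ratio was 0.13 (-0.080 to 0.34) and -0.19 (-0.40 to 0.015) with plain CPM, so neither scaling gave a difference detectable at this depth. Slc30a5 (chromosome 13, 100802648 to 100833427), which loads zinc into the early secretory pathway, had 283 and 208 counts (log2 ratio -0.088, -0.35 to 0.17). Slc30a7 (chromosome 3, 115938973 to 116007406), which does the same in the Golgi apparatus, had 300 and 232 (-0.015, -0.27 to 0.24). Slc30a10 (chromosome 1, 185454848 to 185468762), known mainly as a manganese exporter, had 217 and 241 counts and a log2 ratio of 0.51 (0.24 to 0.78), under 1.5-fold, with 0.18 (-0.087 to 0.46) by plain CPM. The plain CPM ratios of Slc30a5 (-0.41) and Slc30a7 (-0.34) had intervals below 0 but also stayed under 1.5-fold. For Slc30a1 and Slc30a10, 29.8% and 34.6% of coding windows lie where another annotated gene overlaps, with the same doubt as for Mt2.

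Ordered by footprint density in the fed library, Slc39a4 (301 scaled CPM per kb) and Mt1 (270) came first with overlapping Poisson intervals (292 to 311 and 241 to 302). Mt2 (76.5) and Slc39a5 (66.7) followed and also overlapped, then Slc39a14 (52.2), Slc30a1 (44.0) and Slc30a7 (42.6), where each neighbour overlapped the next. Slc30a10 (24.8) and Slc30a5 (19.9) overlapped as well, and Mtf1 (8.58) lay below both. In the fasted library Mt1 (8212) and Mt2 (3692) stood far above the rest, 11th and 30th of 10951 measured genes with a coding length, where they had been 383rd and 1459th in the fed library. Slc39a5 (97.6), Slc39a4 (88.7), Slc39a14 (68.2), Slc30a1 (48.1), Slc30a7 (42.1), Slc30a10 (35.2), Slc30a5 (18.8) and Mtf1 (14.8) came next. Of these neighbours, the intervals of Slc39a5 and Slc39a4, of Slc30a1 and Slc30a7, of Slc30a7 and Slc30a10, and of Slc30a5 and Mtf1 overlapped. The 8 genes other than Mt1 and Mt2 thus spanned 8.58 to 301 scaled CPM per kb when fed and 14.8 to 97.6 when fasted. The density ranks of Mt1 and Mt2 rest on division by a very short coding length of 183 bases. By scaled CPM without that division, Mt1 was 93rd and Mt2 234th of all 22756 gene rows in the fasted library.

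**Figure D4:**
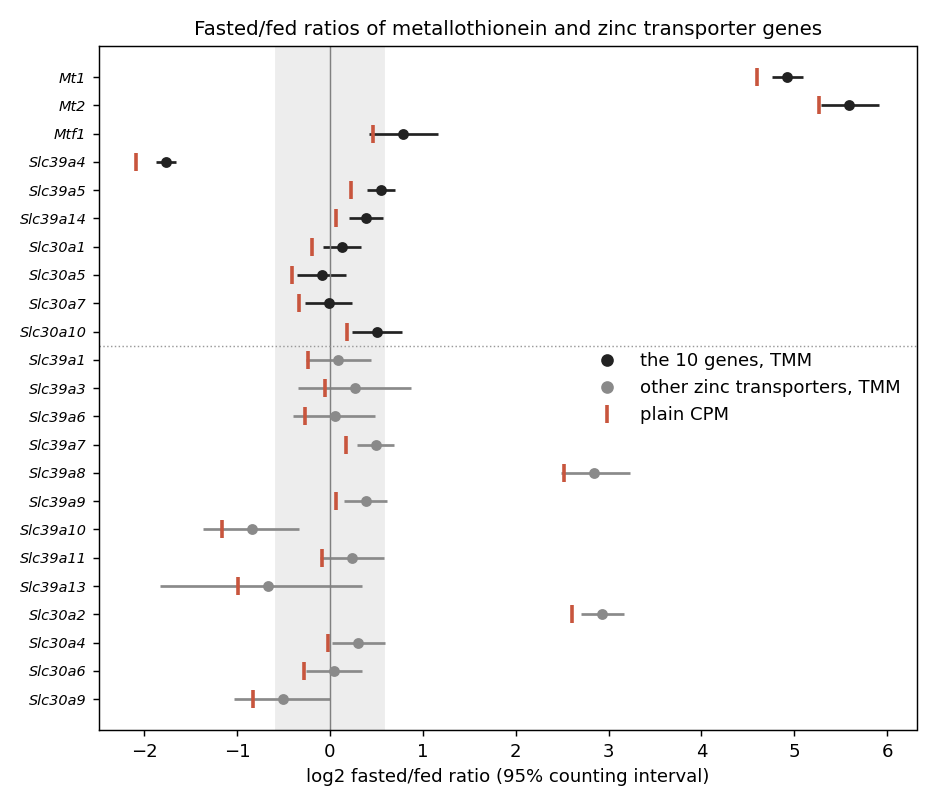
log2 fasted/fed ratios of the 10 genes (black) and 13 other measured zinc transporters (grey) with 95% exact counting intervals; red ticks give the ratio by plain CPM and the shaded band spans ratios under 1.5-fold. Outside the band with an interval excluding 0 are Mt1, Mt2, Mtf1, Slc39a8 and Slc30a2 above and Slc39a4 and Slc39a10 below; the plain CPM tick of Mtf1 is inside the band.

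The rest of both families was taken whole. Of 14 other Slc39 and Slc30 genes with a row, 13 were measured, of which 2 were called higher after the fast, 1 lower and 10 neither, at a median log2 ratio of 0.24 (-0.085 with plain CPM). Both counts are no larger a share than the 17.3% each way over all measured genes. Slc30a2, a vesicular transporter that moves zinc into granules and is known from Paneth cells and mammary gland, gave 178 footprints when fed and 1062 when fasted, 28.6 and 219 scaled CPM. It was 7.62-fold higher, at a log2 ratio of 2.93 (2.70 to 3.17), the 58th highest of the measured genes. Slc39a8, an importer of zinc and manganese, had 73 and 413 counts, 11.7 and 85.0 scaled CPM, and was 7.198-fold higher (log2 ratio 2.85, 2.49 to 3.24; 64th highest). Slc39a10, an importer that Mtf1 is known to repress in mouse cells, was the lower gene, with 108 and 47 counts (log2 ratio -0.84, -1.37 to -0.34). With plain CPM Slc30a9 (93 and 51 counts) passed as lower too, at -0.83 (-1.36 to -0.33) against -0.50 (-1.03 to -0.0034) with TMM.

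The remaining measured transporters stayed under 1.5-fold or had intervals spanning 1. Slc39a7, which releases zinc from the endoplasmic reticulum, had 402 and 442 counts (log2 ratio 0.49, 0.29 to 0.69), and Slc39a9 of the secretory pathway had 304 and 310 (0.38, 0.15 to 0.62). Slc39a1, Slc39a3, Slc39a6 and Slc39a11 had log2 ratios of 0.090, 0.27, 0.050 and 0.24, each with an interval spanning 0 and a value below 0 with plain CPM. For Slc39a7, 98.1% of coding windows lie where the annotated gene Gm20427 overlaps, and 67.2% of those of Slc39a1 also occur in its pseudogene Slc39a1-ps, so these values are uncertain. Slc39a13 had 25 and 12 counts and a log2 ratio of -0.67 whose interval reached 0.34. Slc30a4 and Slc30a6, both exporters of inner membranes, had log2 ratios of 0.31 (0.018 to 0.59) and 0.043 (-0.26 to 0.34), also below 0 with plain CPM. Slc39a2 had 4 fed counts and 0 fasted counts, where a count of 0 allows up to 3 counts or 0.617 scaled CPM, and no fold is given. Slc39a12, Slc30a3 and Slc30a8 were not analysed here.

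The makeup of each family differed between the libraries, again without any scaling. Slc39a4 supplied 59.6% of all Slc39 footprints in the fed library (58.4% to 60.8%) and 22.9% in the fasted library (21.6% to 24.3%). The share of Slc39a8 was 1.17% (0.921% to 1.47%) and 11.1% (10.1% to 12.2%), and that of Slc39a5 10.7% and 20.5%. Among exporters, Slc30a2 supplied 9.36% of Slc30 footprints in the fed library (8.09% to 10.8%) and 42.2% in the fasted library (40.3% to 44.2%), while Slc30a1 went from 21.7% to 14.0%. The level of Slc30a1 itself was 66.4 and 72.6 scaled CPM, so its lower share does not mean a lower level. Exporters made up 23.4% of the footprints of both families in the fed library (22.5% to 24.3%) and 40.4% in the fasted library (39.1% to 41.6%). Behind these shares, Slc39a4 went from 3709 to 853 counts and Slc30a2 from 178 to 1062. The 4 exporters among the 10 genes summed to 1213 and 1034 counts, or 195 and 213 scaled CPM (log2 ratio 0.13, 0.0040 to 0.25). The importers outside the 10 genes summed to 1371 and 1619 counts, or 221 and 333 scaled CPM. The higher exporter share thus does not by itself show a rise across exporters. Such shares weight long coding sequences more and are compared only between libraries, gene by gene.

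**Figure D5:**
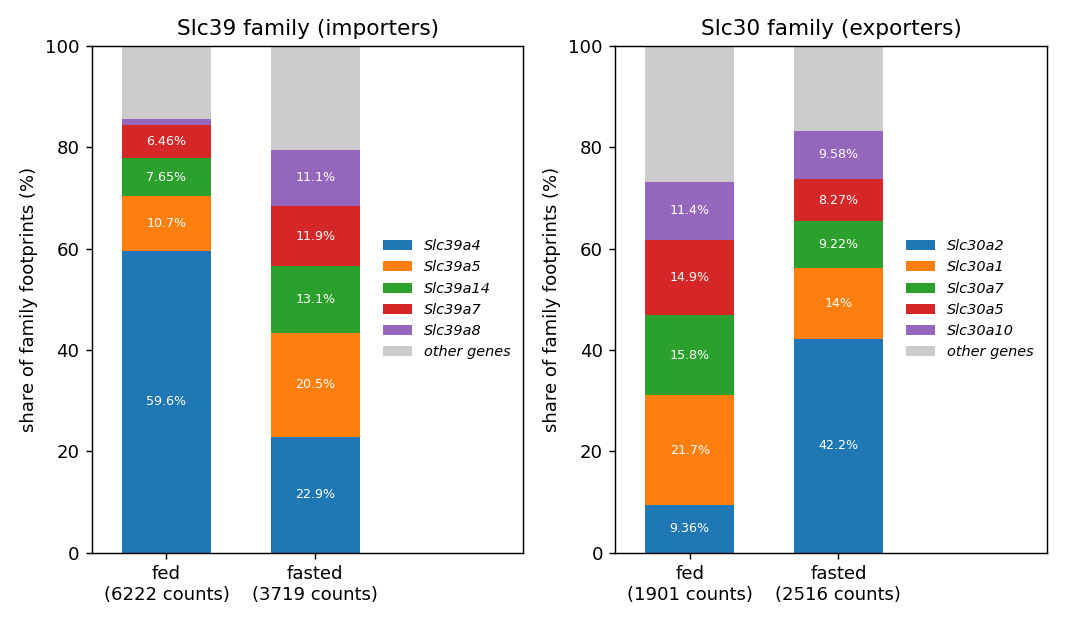
Share of family footprints in percent supplied by each gene, for the Slc39 importers (left) and Slc30 exporters (right) in the fed and fasted library; 5 genes of each family are coloured and the others are grey. Slc39a4 fills 59.6% of the fed and 22.9% of the fasted Slc39 column, and Slc30a2 9.36% and 42.2% of the Slc30 columns.

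Other genes tied to Mtf1 or to metals were described from lists made from known roles. Of 6 further genes linked to Mtf1 in mouse, 2 were called higher after the fast, 1 lower and 3 neither (1, 1 and 4 with plain CPM), at a median log2 ratio of 0.62, where 17.3% of all measured genes were called each way. Ndrg1, a stress-responsive gene, had 575 and 5078 counts (log2 ratio 3.50, 3.37 to 3.63). Selenow, a small selenoprotein, had 42 and 61 counts and a log2 ratio of 0.89 (0.30 to 1.497), which with plain CPM was 0.57 with an interval spanning 0. Slc40a1, the iron exporter ferroportin, was lower with 238 and 101 counts (-0.88, -1.23 to -0.54). Csrp1, which responds to cadmium, had 895 and 704 counts and a log2 ratio of 0.0094 (-0.14 to 0.15; -0.31 with plain CPM), Gclc, of glutathione synthesis, 0.56 (0.29 to 0.82), and the selenoprotein Selenoh 0.67 (-0.030 to 1.40).

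Metallothioneins also bind copper, and of 14 measured copper-handling genes 3 were higher, 2 lower and 9 neither (2 higher, 5 lower and 7 neither with plain CPM), at a median log2 ratio of -0.15. These shares lie near the 17.3% each way over all measured genes. The higher ones were the copper pump Atp7b (1.44, 1.05 to 1.84), the cytochrome oxidase assembly factor Sco2 (1.08, 0.66 to 1.52) and the ferroxidase Heph (0.69, 0.62 to 0.76; 0.37 with plain CPM). The lower ones were the metalloreductase Steap3 (-1.01, -1.49 to -0.57) and the copper transporter Slc31a2 (-0.98, -1.70 to -0.34). Slc31a1, the main copper importer, had 1747 and 932 counts at a log2 ratio of -0.55 (-0.67 to -0.44), short of 1.5-fold, and was called lower with plain CPM (-0.87). Of 17 measured zinc-dependent enzymes of the gut, 8 were called higher and 1 lower, with a median log2 ratio of 0.58 (6 and 2 with a median of 0.26 by plain CPM), against 17.3% of all measured genes each way. The alcohol dehydrogenases Adh1 (2.46, 2.30 to 2.63) and Adh6a (1.48, 1.32 to 1.66) and adenosine deaminase Ada (1.22, 1.13 to 1.30) were among the highest by the interval bound nearest to 1. The lower one was carbonic anhydrase Car12 (-1.16, -1.63 to -0.73).

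Cell markers also differed between the libraries, in both directions, and their part in the results was not tested. Of 12 enterocyte markers 9 were higher in the fasted library and 0 lower, at a median log2 ratio of 1.63 (summed level 43912 and 108980 scaled CPM). Their log2 ratios ran from 0.016 for Krt20 to 3.40 for Apoa4. Of 7 measured Paneth cell markers 3 were higher (1 with plain CPM) and 0 lower at a median of 0.44. The summed level of the Paneth cell markers was 12906 and 14204 scaled CPM, and Defa17 was at 0 in both libraries. Goblet cell markers had 4 of 8 lower and 0 higher, with summed levels of 50813 and 39208 scaled CPM. Smooth muscle markers had 6 of 8 lower and 0 higher (4809 and 2572), fibroblast markers 5 of 8 lower and 2 higher, 0 with plain CPM (5222 and 2262), and immune markers 4 of 8 lower, 7 with plain CPM, and 0 higher (1030 and 535). Pancreatic acinar markers, a tissue rich in Slc39a5 and Slc30a2, summed over 4 genes to 16 counts when fed and 20 when fasted, with Prss2 at 0 in both. Of 6 hepatocyte markers with a row, Alb had 0 and 1 count and Serpina1a was at 0 in both, while Cps1, also made by enterocytes, held 4944 and 3301 of the list's counts. Ttr, the other measured hepatocyte marker, had 26 and 110 counts and was called higher after the fast (log2 ratio 2.42, 1.81 to 3.11).

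The fed library held 5558620 gene counts and the fasted one 5434252. Reads outside counted features made up 13.4% and 21.0% of the reads in each file, and reads that aligned to more than 1 place 41.4% and 39.9%; both kinds were left out of the gene counts and of library sizes.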

How the data were processed

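Ribosome footprints were measured in 1 fed and 1 fasted ileum library, grouped by the treatment label. The deposited values are raw counts of reads, listed by the authors under gene symbols. cutadapt, Bowtie 1.1.2, STAR, HTSeq and build mm10 are named without roles, per the submitters' processing notes; nothing in the sources used here gives the annotation or strand setting. NA was read as 0. Members and lists were chosen with earlier results of these data known.

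Libraries were scaled with TMM (edgeR 4.0.16, R 4.3.3), used for scaling only. Log2 ratios had 0.5 counts added; calls used the ratio with nothing added. Intervals are 95% exact Clopper-Pearson on each gene's split between libraries, or exact Poisson for single levels. They cover counting error only, since 1 library a state gives no spread between animals or libraries. No molecular identifiers are mentioned in the labels, and PCR copies of a read are not independent. The intervals may therefore be too narrow even for counting error. A gene counted as measured from 30 summed counts, and as higher or lower from 1.5-fold with an interval excluding 1. The counting functions were tested on simulated data. Coding lengths (principal transcripts), positions and 28-base windows came from GENCODE vM21, promoters from RefSeq. Named genes were the 10 members, both further metallothioneins, all measured Slc39 and Slc30 genes, list genes past the threshold (up to 4 a direction; 1 such gene is not reported here), the 3 genes nearest in ratio to Mt1 and to Mt2, and 3 neighbours a side. Other genes of these lists named with values (Csrp1, Gclc, Selenoh, Slc31a1, Slc39a2, marker genes at 0, Alb and Cps1) were chosen after their values were seen. Alternatives were plain CPM, upper-quartile factors, DESeq2 (1.42.0) median-ratio factors, TMM leaving out the 20 most counted genes, no minimum count or 200, 2-fold, 99.9% intervals and 2 added counts.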

Additional observations from a re-analysis of the deposited data

How the results depend on the processing

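No paired analysis was possible because each state has 1 library. With 1 library a state, no replicate could be left out either. Median-ratio size factors, upper-quartile factors and TMM without the 20 most counted genes kept the log2 ratio of each of the 10 genes within its counting interval, as did 2 added counts. Plain CPM lowers the log2 ratio of every gene by the same 0.32, and why the 2 scalings differ was not tested. It moved the log2 ratios of Mt1 to 4.602, Mt2 to 5.26 and Slc39a4 to -2.09, with no call lost or reversed for these 3. Those of Slc39a5, Slc39a14, Slc30a1, Slc30a5, Slc30a7 and Slc30a10 also left their TMM intervals, and that of Mtf1 did not. Across the 10 genes, 3 were higher and 1 lower under each alternative to the call rule, except that 2 were higher with plain CPM and with a 2-fold threshold, both without Mtf1. Among other zinc transporters, where 1 was lower, plain CPM gave 2 and both a minimum of 200 counts and a 2-fold threshold gave 0. Over all measured genes, where 1956 were higher and 1962 lower, plain CPM gave 1004 higher and 3536 lower, a minimum of 200 counts, which leaves fewer genes, 1187 and 892, and a 2-fold threshold 935 and 1035. Depth limits genes under 30 counts, such as Mt3 and Slc39a2.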
